A study of Rattus norvegicus with 16 samples.

Results

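CC chemokines are small secreted proteins that draw leukocytes out of the blood. The 10 members described here, Ccl2, Ccl3, Ccl4, Ccl5, Ccl6, Ccl7, Ccl9, Ccl19, Ccl20 and Ccl24, were chosen by gene symbol, and all 10 were found among the 17055 symbols counted in rat liver, where 20 CC ligands were listed in all. The choice of members was made with earlier results of these data known. In septic liver Ccl2, Ccl7, Ccl3, Ccl4 and Ccl19 rose several-fold or more under either anesthetic. Ccl24 fell under isoflurane, and Ccl20 had no read in any control library. Ccl5, Ccl6 and Ccl9, which were well above the counting limit in every library, changed little by comparison.

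Livers came from male Sprague-Dawley rats, 10 weeks old, taken 8 h after the abdomen had been opened, with general anesthesia kept up throughout. The Isoflurane-Sepsis and Propofol-Sepsis groups had cecal ligation and puncture, in which the cecum is tied off and pierced so that gut content leaks into the abdomen. The isoflurane control and propofol control groups had the cecum lifted out and put back. Each group was 4 libraries, each library was made from liver tissue pooled from 3 rats, and 48 rats were used in all. Isoflurane animals were induced with isoflurane and propofol animals with ketamine and xylazine, and the deposited data of the anesthetics also carry different name prefixes, so the maintenance drug, the induction drugs and that prefix cannot be told apart. P-values measure the spread between pools, since rats within a pool were not measured singly.

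CC chemokines carry a pair of adjacent cysteines near their start and act on G protein-coupled receptors of the Ccr family. Many are switched on through NF-kB and AP-1 by bacterial products and by cytokines such as Tnf and Il1b. In liver, Kupffer cells, sinusoidal endothelium, stellate cells and hepatocytes can all make them, and arriving monocytes and neutrophils make more. Ccl2 and Ccl7 attract monocytes through Ccr2. Ccl3 and Ccl5 act on Ccr1, Ccl19 acts on Ccr7 of dendritic and T cells, Ccl20 acts on Ccr6, and Ccl24 attracts eosinophils through Ccr3.

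On the RefSeq assembly GRCr8, 7 of the 10 genes lie on chromosome 10. Ccl2 and Ccl7 are neighbours there, followed by Ccl11, Ccl12 and Ccl1, and after 27 further protein-coding genes Ccl5, Ccl9, Ccl6, Ccl3 and Ccl4 follow one another with no other protein-coding gene between them. Ccl19 lies on chromosome 5 beside Ccl27, Ccl20 on chromosome 9, and Ccl24 on chromosome 12 beside Ccl26. RefSeq promoter entries were matched for 6 members, Ccl6, Ccl7, Ccl9, Ccl19, Ccl20 and Ccl24, and the entries of Ccl2, Ccl3, Ccl4 and Ccl5 were missing. The 250 bases before the annotated start are printed for 4 of them, 5′ to 3′ along the gene, because these genes show the main courses found: Ccl7 with a large rise, Ccl19 with a rise that differed between the anesthetics, Ccl20 with reads in septic liver alone, and Ccl24 with a fall. Capitals mark every match to any of the patterns described after them.
Ccl7 (GRCr8, chr10:67513845-67514094, plus strand): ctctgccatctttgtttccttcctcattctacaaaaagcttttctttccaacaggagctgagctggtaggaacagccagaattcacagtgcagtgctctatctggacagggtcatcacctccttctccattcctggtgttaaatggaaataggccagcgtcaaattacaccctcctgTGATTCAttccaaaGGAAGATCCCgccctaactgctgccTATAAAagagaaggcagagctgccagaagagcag
Ccl19 (GRCr8, chr5:61761165-61761414, minus strand): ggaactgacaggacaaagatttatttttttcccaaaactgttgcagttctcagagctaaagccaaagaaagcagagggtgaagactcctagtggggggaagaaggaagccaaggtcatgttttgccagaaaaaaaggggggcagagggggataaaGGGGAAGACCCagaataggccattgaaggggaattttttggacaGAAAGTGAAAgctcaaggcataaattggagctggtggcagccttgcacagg
Ccl20 (GRCr8, chr9:91836909-91837158, plus strand): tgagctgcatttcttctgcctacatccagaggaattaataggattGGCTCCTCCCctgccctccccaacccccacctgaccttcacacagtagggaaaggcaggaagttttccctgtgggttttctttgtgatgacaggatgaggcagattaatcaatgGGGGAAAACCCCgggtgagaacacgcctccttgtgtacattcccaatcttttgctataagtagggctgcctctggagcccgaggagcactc
Ccl24 (GRCr8, chr12:26737173-26737422, plus strand): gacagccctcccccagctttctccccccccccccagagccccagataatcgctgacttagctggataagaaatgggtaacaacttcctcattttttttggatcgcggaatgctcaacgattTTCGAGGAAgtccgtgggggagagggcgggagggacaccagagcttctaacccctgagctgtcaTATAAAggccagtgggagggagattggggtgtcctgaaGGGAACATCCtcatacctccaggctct

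6 patterns were searched on both strands. The kappaB consensus, the binding pattern of NF-kB, was found before Ccl9, at bases 106 to 97 before the start, and before Ccl20, at bases 89 to 80, and was held by 3.54% of the 33469 promoter windows. A wider kappaB pattern, GGG and CC with any 5 bases between them, which includes every consensus match, was found before all 6 genes and in 42.3% of windows. The AP-1 pattern TGANTCA stood before Ccl7 at bases 73 to 67 (6.34% of windows). The IRF element, GAAA repeated after any 2 bases, stood before Ccl19 at bases 51 to 42 (3.41% of windows). The STAT pattern TTCNNNGAA stood before Ccl24 at bases 129 to 121 (7.67% of windows). The TATA box TATAAA, read on either strand, was held by 12.9% of windows. It stood before Ccl6 at bases 32 to 27, Ccl7 at bases 34 to 29 and Ccl24 at bases 65 to 60. Before Ccl9 it was found on the opposite strand alone, at bases 165 to 160. These are matches of letters only, and binding was not measured.

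Libraries held between 14199422 and 49937173 reads on genes, so 1 read was worth between 0.0208 and 0.0644 CPM (counts scaled to a common library size, with TMM factors over the 16 libraries). Albumin took between 5.61% and 9.03% of reads on genes in every library. Library 10, of Propofol-Sepsis, stood apart, with a summed level of 382 CPM over 8 brain markers against 4.94 to 25.6 CPM in the other libraries. Leaving it out added Ccl24 to the members called for sepsis under propofol and lost none of the 5, and left the calls of the other comparisons it enters as they were. The 10 members together took between 0.0294% and 0.0758% of reads on genes. Of those member reads, between 80.2% and 94.0% were on Ccl9. The other members are therefore genes of few reads, and these are shares of reads, not of transcripts, since lengths were not used.

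The first question was how sepsis changed the members under each anesthetic. Of the 10 members, 9 passed the limit on low counts. Under isoflurane 9 were called at an adjusted p below 0.05 by edgeR, against 50.0% of the 10361 genes tested. Of these 8 were higher (25.7% of all genes) and 1 was lower (24.4%), and 6 were higher with no overlap between the groups (24.3%). Under propofol 5 were called, against 42.1% of 10348 genes, and all 5 were higher (20.4%) with no overlap (21.1%), while 0 were called lower (21.7%). The median log2 fold change of the 9 was 3.52 under isoflurane and 1.69 under propofol, beside 0.00609 and -0.00161 over all genes tested. In the isoflurane controls Ccl2, Ccl3, Ccl4, Ccl7 and Ccl19 held at most 8, 12, 12, 3 and 15 reads per library. They passed the limit on low counts under isoflurane through the septic libraries, where they were high. So did Ccl2, Ccl4, Ccl7 and Ccl19 under propofol, although for Ccl19 only control library 16, with 8 reads, fell short. Their calls as higher, and these medians, depend in part on that limit. The members were also chosen with earlier results known, so these shares do not describe CC ligands at large.

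The monocyte-attracting pair rose together. Ccl2 was at 5.34, 7.09, 5.08 and 12.2 CPM in the 4 Isoflurane-Sepsis libraries and at 0.188, 0.248, 0.139 and 0.167 CPM in their controls. Under propofol it was at 3.16, 2.10, 6.63 and 3.89 CPM after sepsis and at 0.579, 0.349, 0.238 and 0.240 CPM in controls. The groups did not overlap under either anesthetic. Ccl2 had a log2 fold change of 5.31 (SE 0.390, adjusted p = 4.11e-05) under isoflurane and 3.50 (SE 0.429, adjusted p = 2.55e-04) under propofol by edgeR. Ccl2 ranked 12 from the top of the 10361 genes by fitted log2 fold change under isoflurane.

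Ccl7 (also called MCP-3), the neighbour of Ccl2, was at 3.04, 3.03, 2.38 and 4.47 CPM in Isoflurane-Sepsis. Its controls held 1, 0, 1 and 3 reads, so the fitted change rests on 5 control reads. After sepsis under propofol it was at 1.58, 1.37, 1.87 and 2.52 CPM, with 1, 5, 2 and 2 reads in the controls. Every septic library was above every control library. The log2 fold change was 6.01 (SE 0.390, adjusted p = 2.67e-05) under isoflurane and 3.72 (SE 0.404, adjusted p = 1.45e-04) under propofol by edgeR. It was 6.91 under isoflurane with counts thinned to the shallowest library, and 4.32 under propofol without library 14, the control with 5 reads. The ratio of summed reads, corrected for depth, was 70.9 (95% interval 29.9 to 220) under isoflurane and 14.4 (7.67 to 30.7) under propofol, and such intervals cover counting error only.

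**Figure D1:**
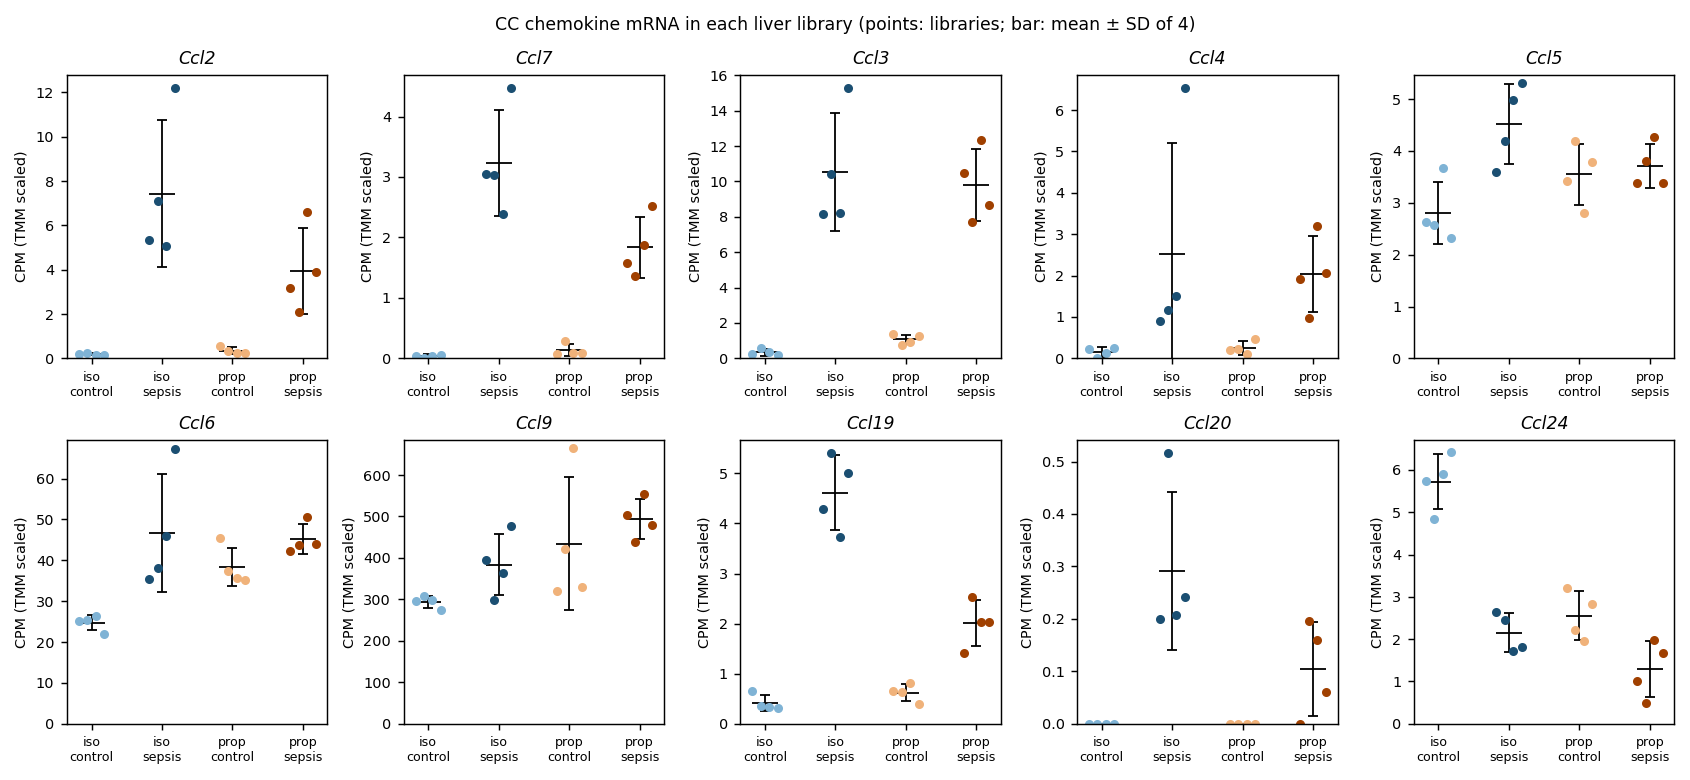
Level of each CC chemokine in each library (y axis, CPM after TMM scaling, from 0; iso, isoflurane; prop, propofol); points are libraries, the long tick is the mean of 4 and the bar is 1 SD. Ccl2, Ccl7, Ccl3, Ccl4 and Ccl19 lie near 0 in both control groups and above them in all 8 septic libraries, Ccl20 is at 0 in all 8 controls, and Ccl24 is highest in the isoflurane controls.

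Ccl3 and Ccl4, the neighbouring genes of the macrophage inflammatory proteins MIP-1 alpha and MIP-1 beta, also rose under both anesthetics. Ccl3 was at 8.18, 10.4, 8.24 and 15.3 CPM in Isoflurane-Sepsis and at 10.5, 7.71, 12.3 and 8.67 CPM in Propofol-Sepsis. These septic ranges overlapped. The controls did not overlap, with 0.235, 0.594, 0.372 and 0.167 CPM under isoflurane and 1.35, 0.757, 0.952 and 1.25 CPM under propofol. With sepsis Ccl3 had a log2 fold change of 5.06 (SE 0.364, adjusted p = 4.01e-05) under isoflurane and 3.17 (SE 0.217, adjusted p = 1.66e-05) under propofol by edgeR.

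Ccl4 had between 0 and 12 reads in each control library. After sepsis it was at 0.898, 1.16, 1.50 and 6.52 CPM in Isoflurane-Sepsis and at 1.92, 0.976, 3.21 and 2.07 CPM in Propofol-Sepsis. Controls lay between 0 and 0.250 CPM under isoflurane and between 0.0952 and 0.480 CPM under propofol. Library 4 alone held 108 of the 173 Isoflurane-Sepsis reads. The log2 fold change was 3.80 (SE 0.833, adjusted p = 0.00541) under isoflurane and 2.97 (SE 0.481, adjusted p = 0.00107) under propofol by edgeR. Without library 4 the isoflurane value was 2.73 (adjusted p = 0.00258).

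Ccl5 (RANTES), made by T and NK cells among others, shares the receptor Ccr1 with Ccl3. It was at 3.59, 4.19, 4.97 and 5.32 CPM in Isoflurane-Sepsis and at 2.63, 2.57, 3.67 and 2.31 CPM in isoflurane controls, so the groups overlapped. Under propofol it was at 3.39, 3.80, 4.28 and 3.38 CPM after sepsis and 3.41, 4.19, 2.81 and 3.79 CPM in controls. The log2 fold change was 0.70 (SE 0.191, adjusted p = 0.0142) under isoflurane by edgeR. Under propofol it was 0.06 with a 95% interval of -0.31 to 0.42 (adjusted p = 0.803, edgeR).

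Ccl6 and Ccl9, neighbouring rodent genes whose products act on Ccr1, had the most reads. Ccl6 was at 35.5, 38.2, 46.0 and 67.2 CPM in Isoflurane-Sepsis and between 22.02 and 26.39 CPM in isoflurane controls, with no overlap. Its log2 fold change was 0.92 (SE 0.190, adjusted p = 0.00401) under isoflurane and 0.23 (95% interval 0.02 to 0.44, adjusted p = 0.0727) under propofol by edgeR, where it was between 42.2 and 50.6 CPM after sepsis and between 35.3 and 45.4 CPM in controls. Ccl9 was between 299 and 478 CPM in Isoflurane-Sepsis and between 274 and 307 CPM in its controls, which overlapped, with a log2 fold change of 0.39 (SE 0.129, adjusted p = 0.0327, edgeR). That call was lost when any 1 of libraries 1, 5, 6, 7 and 8 was left out, with adjusted p up to 0.0902, and also with library totals (0.0625) and with all 16 libraries in 1 fit (0.0983). Under propofol Ccl9 was between 437 and 553 CPM after sepsis and at 320, 422, 665 and 331 CPM in controls, with a log2 fold change of 0.18 (adjusted p = 0.511, edgeR). Without library 15, the high control, it was 0.45 (adjusted p = 0.0163).

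Ccl19, a homeostatic chemokine of lymphoid tissue, was at 4.29, 5.41, 3.73 and 5.01 CPM in Isoflurane-Sepsis and at 0.658, 0.347, 0.325 and 0.312 CPM in isoflurane controls. After sepsis under propofol it was at 1.41, 2.54, 2.03 and 2.04 CPM, and in propofol controls at 0.644, 0.641, 0.809 and 0.384 CPM. The septic groups did not overlap with their controls, nor with each other. With sepsis its log2 fold change was 3.52 (SE 0.249, adjusted p = 3.97e-05) under isoflurane and 1.69 (SE 0.271, adjusted p = 0.00103) under propofol by edgeR.

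Ccl20, the only member under the limit on low counts, had 4, 8, 4 and 4 reads in the Isoflurane-Sepsis libraries and 0, 4, 3 and 2 reads in Propofol-Sepsis. None of the 8 control libraries had a read. Against the floor of 3 reads over the control group, Ccl20 was at least 10.4-fold higher after sepsis under isoflurane and at least 2.49-fold higher under propofol. Counting error in the septic reads widens these limits, and the 95% interval of the ratio of summed reads began at 7.67 and 1.64. The mean rose from 0 to 0.291 CPM under isoflurane (two-sided p = 0.0286 by an exact permutation test, which can go no lower with 4 against 4). Under propofol it was 0.104 CPM after sepsis (exact permutation test, two-sided p = 0.143).

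Ccl24 (eotaxin-2) went the other way. It was at 2.64, 2.45, 1.71 and 1.81 CPM in Isoflurane-Sepsis and at 5.74, 4.85, 5.90 and 6.42 CPM in isoflurane controls, with no overlap. Under propofol it was at 1.02, 0.488, 1.98 and 1.67 CPM after sepsis and at 3.22, 2.21, 1.95 and 2.83 CPM in controls, where 1 septic library exceeded the lowest control. The log2 fold change was -1.41 (SE 0.166, adjusted p = 2.84e-04) under isoflurane and -0.97 (SE 0.365, adjusted p = 0.0555) under propofol by edgeR. The propofol value passed the threshold by DESeq2 (adjusted p = 0.0298) and without library 10, where it was -0.69 (adjusted p = 0.0499).

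**Figure D2:**
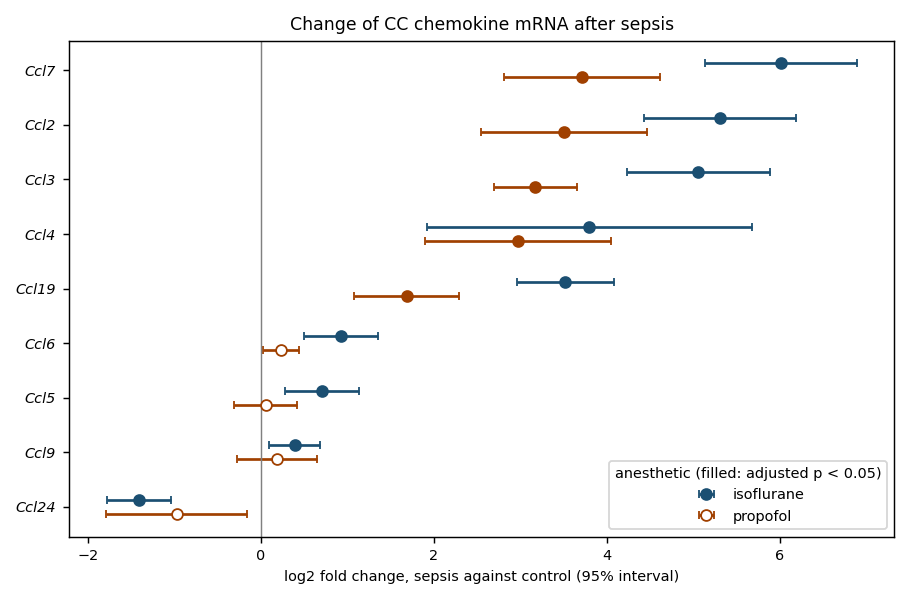
Fitted log2 fold change of sepsis against control (x axis) for the 9 members tested, under isoflurane (blue) and propofol (orange); bars are 95% intervals and filled points have an adjusted p below 0.05. Ccl7, Ccl2, Ccl3, Ccl4 and Ccl19 lie to the right of 0 under both anesthetics, and Ccl24 is the only gene to the left.

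The second question was whether the anesthetics differed. In control liver 6 members were tested and 4 were called, against 43.3% of the 10314 genes tested, with 3 lower under isoflurane (21.7% of all genes) and 1 higher (21.6%). No overlap between the groups was seen for 3 members that were lower (20.0%) and 1 that was higher (20.4%). Ccl3 (log2 difference, isoflurane minus propofol, -1.80, SE 0.363, adjusted p = 0.00261), Ccl6 (-0.64, SE 0.0896, adjusted p = 3.10e-04) and Ccl9 (-0.57, SE 0.193, adjusted p = 0.0350) were lower under isoflurane by edgeR. Ccl24 was higher, by 1.19 (SE 0.156, adjusted p = 2.09e-04). Ccl3 held 5 to 12 reads per library in the isoflurane controls. It passed the limit on low counts in this comparison through the propofol controls, where it was higher. Its call as lower under isoflurane depends in part on that limit. The Ccl9 call was lost by DESeq2 (adjusted p = 0.0751) and without any 1 of libraries 5, 6, 7, 8 and 14. Ccl5 differed by -0.36 (95% interval -0.75 to 0.03) and Ccl19 by -0.65 (-1.38 to 0.09), neither past the threshold.

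In septic liver 1 of 9 members was called, against 19.3% of 10272 genes (10.6% higher and 8.66% lower). That was Ccl19, higher under isoflurane by 1.19 on the log2 scale (SE 0.212, adjusted p = 0.0129, edgeR), a call lost without library 12 (adjusted p = 0.0529). Ccl2 was higher by 0.91 (95% interval 0.04 to 1.78, adjusted p = 0.116) and Ccl7 by 0.80 (0.20 to 1.39, adjusted p = 0.0602) in the same edgeR fit, and neither passed. Ccl3 differed by 0.10, with an interval of -0.42 to 0.62, and Ccl6 by 0.04, with an interval of -0.38 to 0.47. Ccl20 had 20 reads in Isoflurane-Sepsis and 9 in Propofol-Sepsis (exact permutation test on CPM, two-sided p = 0.0286). Library 10 held 4 reads, as many as libraries 1, 3 and 4, and scaled by library totals alone the groups overlapped, from 0.184 CPM upward in Isoflurane-Sepsis and up to 0.202 CPM in Propofol-Sepsis (exact permutation test, two-sided p = 0.0857, a scaling added after the data had been seen).

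The sepsis effects themselves were compared as an interaction in 1 fit of the 16 libraries, and a positive value means a larger log2 change under isoflurane. Of the 9 members 2 were called, both higher, against 2.72% of 10621 genes called and 1.66% called higher (1.06% were called lower). They were Ccl3 (1.88, SE 0.459, adjusted p = 0.0442) and Ccl19 (1.81, SE 0.389, adjusted p = 0.0297) by edgeR. The values behind them differed in place. For Ccl3 the septic groups overlapped and the control groups did not, whereas for Ccl19 the septic groups did not overlap and the control groups did. Both calls were close to the threshold: that of Ccl3 was kept when library 1, 4, 6, 10 or 11 was left out and lost without any 1 of the other 11 libraries, and that of Ccl19 was lost without any 1 of libraries 6, 7, 8, 9, 12, 13, 14 and 15. Ccl7 (2.29, adjusted p = 0.0808) and Ccl2 (1.79, adjusted p = 0.135) had differences as large with more spread, and did not pass.

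Among septic pools the same libraries were often the highest. Library 4 was the highest of Isoflurane-Sepsis for 7 members, Ccl2, Ccl3, Ccl4, Ccl5, Ccl6, Ccl7 and Ccl9. Library 11 was the highest of Propofol-Sepsis for 7, Ccl2, Ccl3, Ccl4, Ccl5, Ccl6, Ccl9 and Ccl24. Ccl19 followed neither, being highest in library 2 and in library 10. Library 10 was the lowest of its group for 6 members, with Ccl24 at -1.40 and Ccl4 at -1.07 on the log2 scale relative to the group mean.

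**Figure D3:**
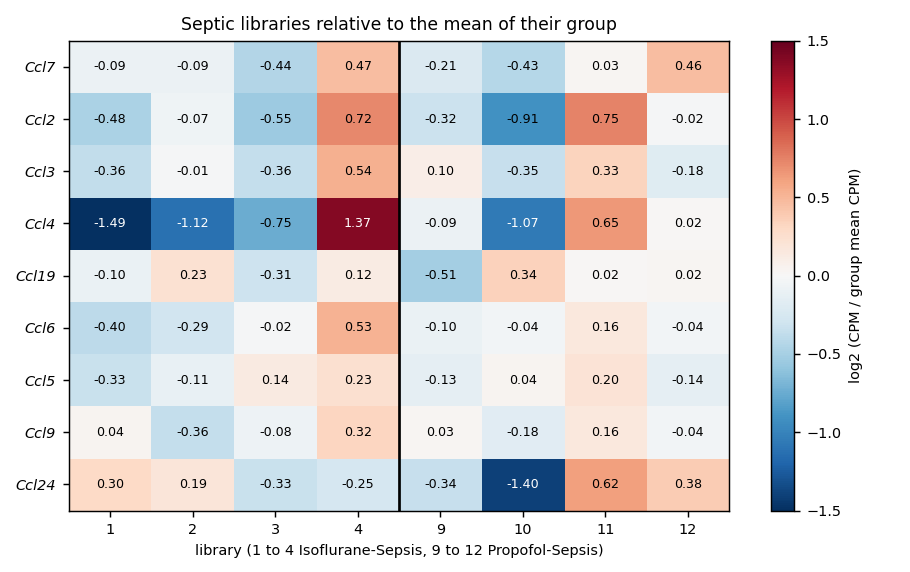
Log2 ratio of each septic library's CPM to the mean CPM of its own group (colour and number), for the 9 members tested (rows) in Isoflurane-Sepsis libraries 1 to 4 and Propofol-Sepsis libraries 9 to 12 (columns). Library 4 reaches 1.37 for Ccl4 and 0.72 for Ccl2, and library 11 reaches 0.75 for Ccl2.

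Some leukocyte marker lists were higher in septic liver and others were not. In bulk liver, more cells of a type and more RNA per cell cannot be told apart. The 14 neutrophil and monocyte markers summed to 171 to 473 CPM in Isoflurane-Sepsis and 49.8 to 57.8 CPM in its controls, and to 112 to 178 CPM and 46.5 to 67.1 CPM under propofol. Library 4 had the highest of these sums, and none of the 14 was at 0 in any group. The Kupffer cell and macrophage markers (12 of 13 matched) summed to 519 to 706 CPM in Isoflurane-Sepsis and 431 to 536 CPM in its controls, and to 507 to 604 and 526 to 577 CPM under propofol. The 13 matched T and NK cell markers summed to 7.86 to 16.1 CPM against 4.19 to 4.88 CPM under isoflurane, and to 6.83 to 9.46 against 6.38 to 8.50 CPM under propofol. The 7 matched B cell markers summed to 4.77 to 12.5 against 5.45 to 7.11 CPM under isoflurane and to 6.11 to 17.6 against 16.6 to 26.1 CPM under propofol. The 4 matched dendritic cell markers summed to 5.08 to 8.28 against 4.98 to 7.29 CPM and to 7.33 to 9.02 against 7.28 to 8.33 CPM. The 8 stellate cell and fibroblast markers summed to 292 to 602 against 380 to 403 CPM under isoflurane, with library 4 the highest, and to 317 to 374 against 368 to 386 CPM under propofol. The 6 matched sinusoidal endothelial markers summed to 142 to 162 against 187 to 241 CPM and to 191 to 204 against 216 to 264 CPM. The 8 eosinophil and mast cell markers summed to 13.5 to 30.5 CPM against 6.52 to 7.72 CPM under isoflurane and to 14.3 to 17.97 against 7.39 to 8.44 CPM under propofol. Of the 3 tested under isoflurane 2 were called higher (25.7% of all genes) and 1 lower (24.4%). The eosinophil peroxidase gene Epx was at 0 in both isoflurane groups and in the propofol controls. The part of these cells in the chemokine values was not tested.

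Among the receptors, Ccr1, which binds Ccl3, Ccl5, Ccl6, Ccl7 and Ccl9, was at 0.848, 1.55, 2.59 and 3.02 CPM in Isoflurane-Sepsis and between 0.446 and 0.604 CPM in its controls. It rose by 1.93 on the log2 scale (SE 0.392, adjusted p = 0.00373) under isoflurane and by 0.93 (SE 0.301, adjusted p = 0.0315) under propofol by edgeR. Control libraries held 9 to 29 reads on Ccr1 under isoflurane and 6 to 15 under propofol. In both comparisons Ccr1 passed the limit on low counts through the septic libraries, where it was high. Both calls depend in part on that limit. A further 7 receptors had at most 12 reads in any library, and Ccr2 and Ccr8 were not analysed here.

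Of 6 atypical and accessory receptors, 3 were found and 2 were tested. Both were called higher in both comparisons, against 25.7% of all genes under isoflurane and 20.4% under propofol. Ackr3, a scavenger of CXC chemokines listed in the files as Cxcr7, rose by 1.58 (SE 0.172, adjusted p = 2.06e-04) under isoflurane and by 2.20 (SE 0.174, adjusted p = 3.81e-05) under propofol by edgeR. Ccrl2, which binds chemerin, rose by 1.10 (adjusted p = 0.00254) and 1.23 (adjusted p = 0.00189). Of the 10 other CC ligands 2 were tested. Ccl21, the other ligand of Ccr7, rose under propofol by 0.54 (SE 0.185, adjusted p = 0.0397) and under isoflurane had a log2 fold change of 0.91 (SE 0.386, adjusted p = 0.0766) by edgeR, and Ccl27 was not called in either.

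Cytokines known to induce these chemokines rose as well. Of 8 listed, 4 were tested under isoflurane and 3 under propofol. All were called higher, against 25.7% of all genes under isoflurane and 20.4% under propofol. Tnf and Il6 held 1 to 4 reads per isoflurane control library and passed the limit on low counts there through the septic libraries. Tnf also needed the septic libraries under propofol, where control library 14, with 8 reads, fell short. The calls of Tnf and Il6 depend in part on that limit. Tnf was at 0.948, 1.42, 1.61 and 1.69 CPM in Isoflurane-Sepsis and between 0.0465 and 0.141 CPM in its controls, a log2 fold change of 4.04 (SE 0.359, adjusted p = 9.35e-05). Under propofol it went from between 0.466 and 0.864 CPM in controls to between 1.46 and 3.21 CPM, a log2 fold change of 1.90 (SE 0.302, adjusted p = 9.61e-04). As with Ccl3, the Tnf control groups did not overlap, and its interaction was 2.12 (SE 0.504, adjusted p = 0.0403) by edgeR. Il1b rose by 3.70 and 2.36 (adjusted p = 7.28e-05 and 2.52e-05, edgeR), and Il6 by 5.40 under isoflurane (adjusted p = 2.50e-04, edgeR), where its controls held 1 to 4 reads. Under propofol Il6 was under the limit on low counts. It was at 0.517 to 1.02 CPM after sepsis there and at 0 to 0.116 CPM in controls, with no overlap. Of 11 NF-kB feedback and related genes listed, 7 were found and tested. Of these 6 were called higher under isoflurane (25.7% of all genes) and 6 under propofol (20.4%), led by Nfkb2 at 1.61 and 1.76.

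**Figure D4:**
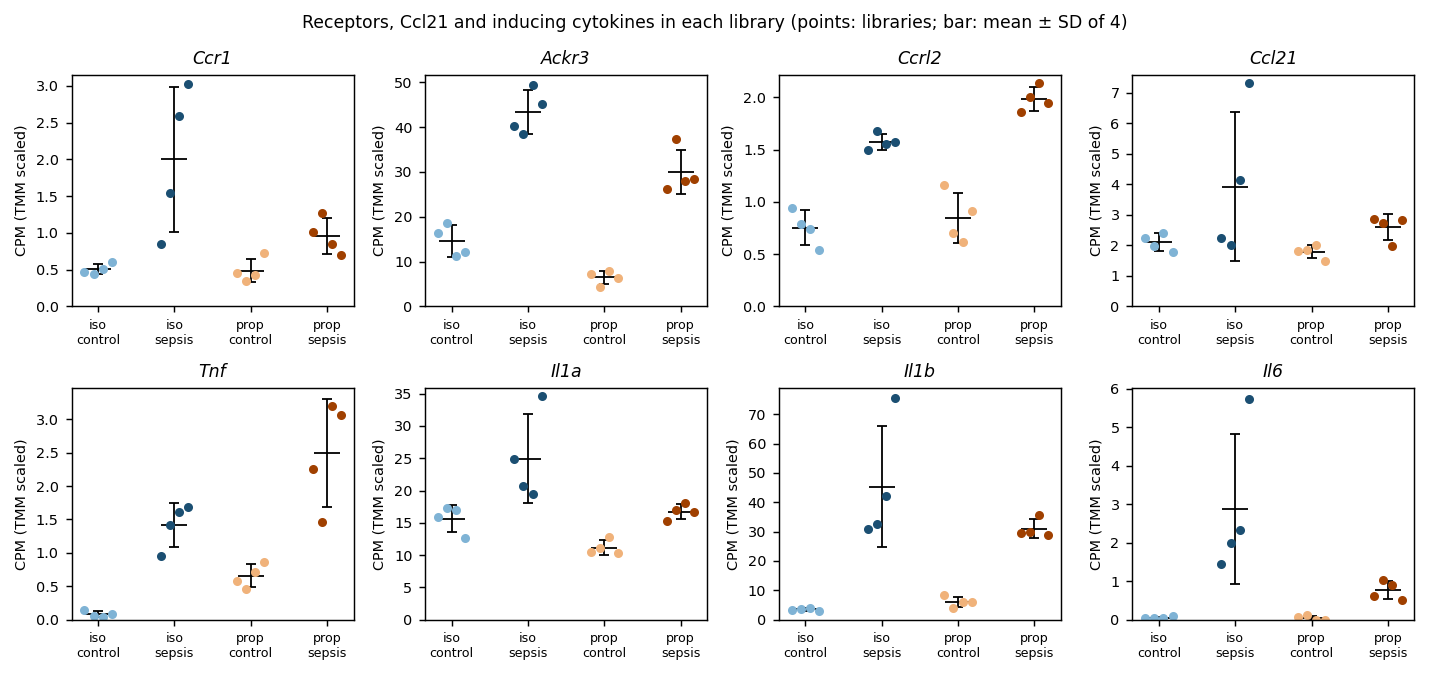
Level of 3 receptors, Ccl21 and 4 inducing cytokines in each library (y axis, CPM after TMM scaling, from 0; iso, isoflurane; prop, propofol); points are libraries, the long tick is the mean of 4 and the bar is 1 SD. Ccr1 reaches 3.02 CPM in Isoflurane-Sepsis, and Tnf is higher in every propofol control than in every isoflurane control.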

How the data were processed

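Liver tissue was pooled from 3 rats per library, and its polyadenylated RNA was made into strand-keeping libraries and read from 1 end. The authors deposited, for each of 16 libraries, counts of reads on 17055 gene symbols without normalization. The submitters' processing notes name STAR and the rn5 build. The counting program and its settings are not stated in the paper or labels. 2 entries without a gene name, holding reads outside genes (21.6% to 25.4%) and ambiguous reads (1.07% to 1.35%), were left out. Groups came from the labels. Libraries of a group differed by more than sampling noise (chi-square per degree of freedom 3.35 to 96.3).

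Each pair of groups was compared with edgeR 4.0.16 (quasi-likelihood, TMM) in R 4.3.3 in fits of 8 libraries, and the interaction in a fit of 16. The limit on low counts was that of filterByExpr (minimum count 10, minimum total count 15), and p-values were adjusted by Benjamini-Hochberg over all genes tested. Members with too few counts had an exact permutation test over libraries. Alternatives were RLE factors, library totals, DESeq2 1.42.0, limma-voom 3.58.1, a mean CPM of at least 1 or no limit in place of filterByExpr, thinning to 14199422 reads, all 16 libraries in 1 fit, and each library left out. The scripts were tested on simulated data. All members were named, and of the related lists any gene called in a sepsis comparison or the interaction could be named. Markers are given as sums. A gene under this rule is not reported here.

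Of the gene symbols 14175 matched RefSeq GRCr8, which was used for names, neighbour order and promoter windows, and not for coordinates of the counts. The wider kappaB pattern was added after the promoter sequences had been seen, a wider TATA pattern searched at the same time was dropped as matching too many windows, and the other 5 patterns were chosen earlier. The members and lists were chosen with earlier results of these data known.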

Additional observations from a re-analysis of the deposited data

Results flagged for a closer look

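Within groups of 4 libraries, 4 single values lay far from the other 3 by Dixon's test. Chance passes it in about 1 group in 20 when values are normally distributed, and values from few reads need not keep to that rate. The test was run for each of the 10 members in each of the 4 groups, wherever the values differed. Ccl4 was at 6.52 CPM in library 4 of Isoflurane-Sepsis. Ccl7 was at 0.291 CPM, from 5 reads, in library 14 of the propofol controls. Ccl19 was at 0.658 CPM in library 5 of the isoflurane controls. Ccl20 was at 0.516 CPM, from 8 reads, in library 2 of Isoflurane-Sepsis.

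The interaction test of edgeR called Ccl3 (log2 difference 1.88, isoflurane minus propofol) and Ccl19 (1.81). Both calls were close to the threshold and were lost when certain single libraries were left out. For Ccl3 the septic groups overlapped and the control groups did not. Sepsis raised both genes in all 4 libraries under each anesthetic.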

How the results depend on the processing

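The counts of members called stayed within 1.5 times for sepsis under isoflurane (8 to 10), sepsis under propofol (5 to 6) and the control comparison (3 to 5) in every alternative run. In septic liver the count of 1 became 2 with library totals (Ccl9 added), 2 with DESeq2 (Ccl7 added), 3 with all 16 libraries in 1 fit, and 0 (without library 12) to 2 (without library 4) with a library left out. For the interaction the count of 2 became 1, Ccl19, with limma-voom, with no limit on low counts and with thinned counts, was 3 with DESeq2, and was 0 to 4 with a library left out. Some values changed sign. With a library left out, Ccl5 under propofol ranged from -0.047 to 0.15 (negative without libraries 11, -0.01, and 15). In septic liver Ccl3 (-0.047) and Ccl6 (-0.10) were negative with library totals and Ccl4 with limma-voom (-0.10). Leaving out a library gave -0.13 to 0.23 for Ccl3, -0.78 to 0.59 for Ccl4 and -0.18 to 0.16 for Ccl6, each negative without library 4. In the interaction it gave -0.23 to 1.26 for Ccl4, negative without library 4, and -0.080 to 0.32 for Ccl9, negative without library 15. None of these was called in either sign. The cause was not tested. Ccl24 under propofol passed with library totals, DESeq2, limma-voom, thinned counts, all 16 libraries in 1 fit, and without library 10 or 11. No paired analysis was possible because the libraries are numbered 1 to 16 and no number is shared between groups. Depth limits Ccl20 and the controls of Ccl7, which held 0 to 5 reads per library.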
